A study of Mus musculus with 9 samples.

Results

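Mouse muscle stem cells, also called satellite cells, were examined for 10 genes of the ATF4 amino acid response and of serine synthesis. The genes were taken by symbol from a table of 45706 genes, and each of the 10 symbols was found there. They are the regulators Atf4, Atf5, Ddit3 and Trib3, the enzymes Asns, Phgdh, Psat1 and Shmt2, and the amino acid transporter genes Slc7a5 and Slc7a11. Asns was picked on its rise in culture, so its levels are a description and carry no test, and the tests below are of the other 9 genes. All 10 were among the 17291 genes that reached 10 normalized reads in at least 3 libraries, Asns through its cultured libraries alone.

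The cells came from wild-type C57Bl6 mice aged 12 to 20 weeks and were sequenced at 3 stages, with 3 libraries from different animals per stage. Freshly isolated cells were purified from skeletal muscle. Proliferating cells had been cultured for 3 days or longer, with 20% FCS and human FGF-2 at 2.5 ng/ml. Myotubes had then been kept for 6 days in DMEM with 2% horse serum, so medium and stage changed together and cannot be told apart.

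ATF4 is a transcription factor whose protein is made chiefly when the initiation factor eIF2 is phosphorylated, for example by the kinase GCN2 when uncharged tRNA builds up. Its protein level is set largely by translation, so its mRNA is not a measure of its activity. With partners of the C/EBP family it binds C/EBP-ATF response elements near genes for amino acid synthesis, uptake and tRNA charging. Serine is made from a glycolytic intermediate by Phgdh, Psat1 and Psph, and the mitochondrial enzyme Shmt2 splits serine into glycine and a carbon unit carried by folate.

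The letters of the element, TGATGNAAN on either strand, were looked for in the 250 bases before the RefSeq start of each gene (GRCm38.p6). Of the 10 genes 9 had a promoter entry, and Slc7a5 had none. The element was found in 2 of them, Asns and Slc7a11, against 1052 of 27025 genes in all, or 3.89%. The stretches below carry it in capitals, 5′ to 3′ on the strand of the gene.
Asns: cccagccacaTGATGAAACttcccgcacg
Slc7a11: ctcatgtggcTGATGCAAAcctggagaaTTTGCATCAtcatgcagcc
The Asns stretch lies at chr6:7693214-7693242 on the minus strand, with the element 23 bases before the RefSeq start. The first exon of the GENCODE vM21 model starts 45 bases further upstream and holds the stretch. The Slc7a11 stretch lies at chr3:50443643-50443689 on the minus strand, from 76 to 30 bases before the start. It holds 2 copies that face in opposite directions with 9 bases between them. The palindrome TGACGTCA, a cyclic AMP response element, was in the promoters of 0 of the 9 genes, against 1.77% of all genes. The genes were chosen as genes of the ATF4 response and of serine synthesis, so these counts are a description and carry no test. A match is a match of letters only, and says nothing of whether a factor was bound in these cells. A missing match does not show that a gene lacks such an element, since only these exact letters in 250 bases were sought.

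Values are read counts per gene, scaled from library to library and rounded by the authors, and are called normalized reads here. They summed to 20.1 to 26.2 M in freshly isolated, 17.8 to 18.2 M in proliferating and 19.5 to 20.8 M in myotube libraries. The spacing of low values put the reads behind them at 12.0 to 19.3 M, 20.4 to 24.3 M and 22.0 to 22.8 M in the same order. Freshly isolated replicate 1 stood apart, with 1 read worth 2.18 normalized reads and 22.2% of its total in a single gene, Gm26917. It was also higher than replicates 2 and 3 in Myog, a gene of early differentiation, with 1257 against 62 and 218 normalized reads, and in the division marker Mki67, with 471 against 66 and 163.

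Stage markers followed the labels. Pax7, the satellite cell transcription factor, had 11694 to 15700 normalized reads in freshly isolated, 2556 to 3330 in proliferating and 1192 to 1645 in myotube libraries. Mki67 had 66 to 471, 22495 to 25457 and 7550 to 13203 in the same order, so the myotube cultures still held the mRNA of dividing cells. Myh3, the embryonic myosin heavy chain, had 23 to 83, 3055 to 23038 and 296158 to 335321. Proliferating replicate 1 had the lowest Myh3 of its stage, and its Myog was 2179 against 9530 and 8749 in replicates 2 and 3. Fos, an immediate early gene, had 27292 to 32725 normalized reads in freshly isolated, 24 to 34 in proliferating and 110 to 116 in myotube libraries.

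**Figure D1:**
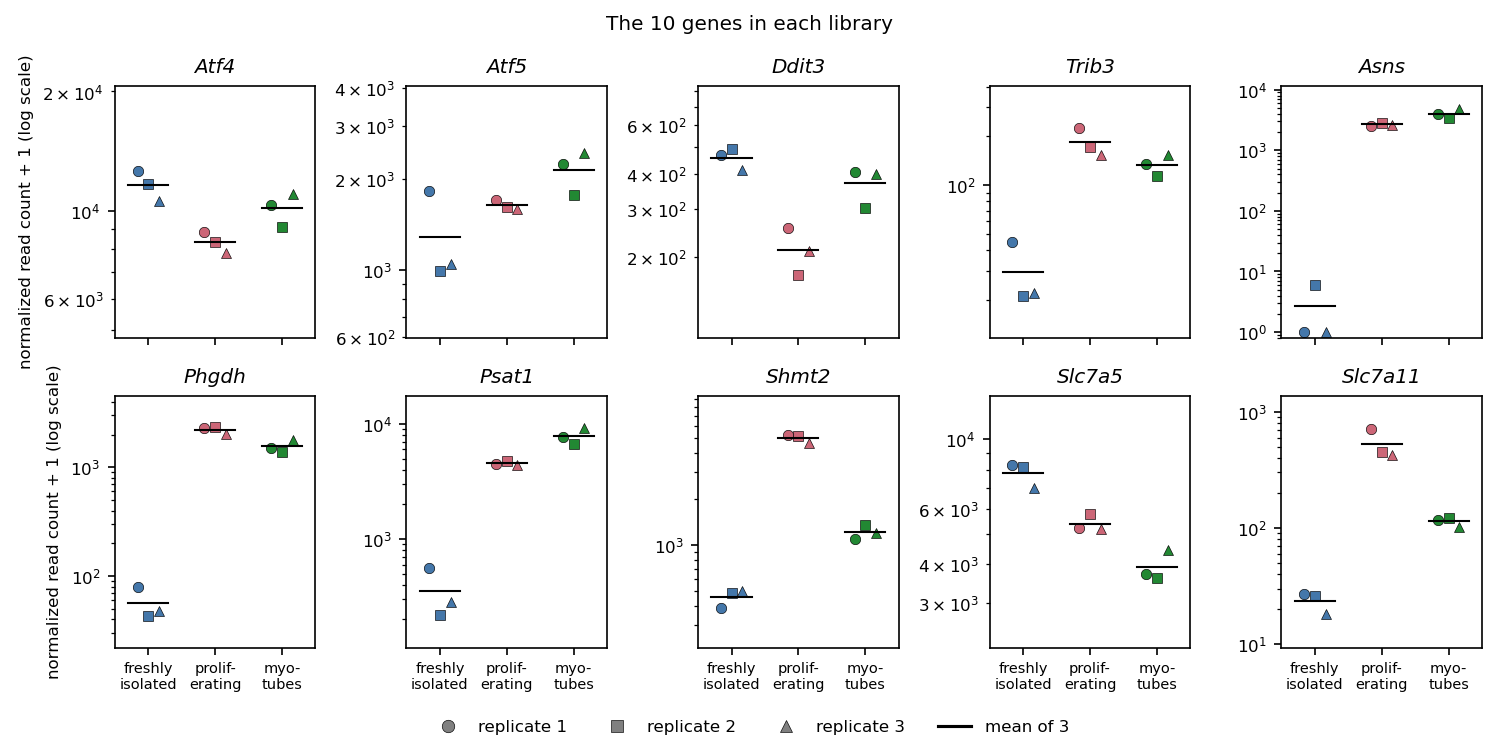
Level of each of the 10 genes in the 9 libraries, as normalized read count + 1 on log axes that differ between panels. Symbols are single libraries, coloured by stage, and bars are means of 3. Asns, Phgdh, Psat1, Shmt2, Trib3 and Slc7a11 lie lowest in the freshly isolated libraries, while Atf4, Ddit3 and Slc7a5 lie lowest in cultured ones.

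Proliferating and freshly isolated cells differed in 8 of the 9 tested genes, with 5 higher and 3 lower in proliferating cells (limma, p adjusted by Benjamini-Hochberg over all 17291 genes and below 0.05). Of all genes tested, 37.6% were called higher and 35.7% lower in this comparison, so a call alone says little, and the size of a change says more. Phgdh and Psat1 of serine synthesis, the serine-using Shmt2 and the cystine transporter gene rose 10.9-fold to 40.6-fold, while Atf4 itself fell. The median log2 change of all genes was 0.07. Fold changes are on the scale of log2(value + 1), which understates the change of genes with low values. Whether libraries overlapped is given below as a description, since the share of all genes whose libraries lay apart was not counted.

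Atf4 was the most abundant of the 10 genes per length at every stage. It had 8854, 8322 and 7824 normalized reads in proliferating libraries, against 12600, 11710 and 10593 in freshly isolated ones. The 2 stages did not overlap, and Atf4 was lower in proliferating cells by a log2 change of -0.48 ± 0.10 (SE, n = 3 each, adjusted p = 0.00185). The size of this fall rests on the scaling between libraries. With equal library totals it was -0.18 (adjusted p = 0.164) and after quantile normalization -0.17 (adjusted p = 0.109), and neither passed.

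Ddit3 encodes CHOP, a transcription factor that ATF4 induces and that is known for promoting cell death under lasting stress. It had 253, 171 and 209 normalized reads in proliferating libraries, against 468, 493 and 411 in freshly isolated ones. The stages lay apart, and the fall of 1.13 ± 0.18 on the log2 scale passed (adjusted p = 0.000238). Ddit3 shares exon bases with Mars and Gm4189 on the opposite strand and with another gene model of its own name. No source used here says whether the counting used strand, so its values are uncertain to that extent.

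Trib3 encodes a pseudokinase that binds ATF4 and restrains it. It had 223, 171 and 152 normalized reads in proliferating libraries, against 44, 20 and 21 in freshly isolated ones, a 6.57-fold rise (log2 change 2.72 ± 0.32, adjusted p = 2.56e-05). So the regulators did not move as 1 group: Trib3 rose where Atf4 and Ddit3 fell.

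Atf5 encodes a factor closely related to ATF4. Its levels were 1702, 1612 and 1596 normalized reads in proliferating libraries, against 1826, 994 and 1045 in freshly isolated ones, and freshly isolated replicate 1 lay above all of the proliferating libraries. The log2 change of 0.40 ± 0.21 did not pass (adjusted p = 0.11). Without freshly isolated replicate 1 it was 0.68 and passed (adjusted p = 0.000382), and with equal library totals it was 0.70 (adjusted p = 0.00162). Atf5 also shares exon bases with Nup62 and Il4i1 on the opposite strand.

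Asns, which makes asparagine from aspartate and glutamine, was at or near 0 in freshly isolated cells. Its levels there were 0, 5 and 0 normalized reads, and the 2 zeros allow up to 6.54 normalized reads in replicate 1 and 3.13 in replicate 3, the worth of 3 reads. Proliferating libraries held 2523, 2866 and 2603 normalized reads, and myotubes 3919, 3348 and 4705. Asns was picked on this rise, so the gap between freshly isolated and cultured libraries is no support for it. The floors of 6.54 and 3.13 normalized reads cover counting error only.

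Phgdh, the first and committing enzyme of serine synthesis, had 2287, 2339 and 2030 normalized reads in proliferating libraries, against 78, 42 and 47 in freshly isolated ones. This 40.6-fold rise was the largest of the 9 tested genes in this fit (log2 change 5.34 ± 0.21, adjusted p = 1.06e-08). Psat1, the aminotransferase of the next step, had 4502, 4808 and 4384 normalized reads in proliferating libraries, against 556, 219 and 280 in freshly isolated ones. It rose 14.0-fold (log2 change 3.81 ± 0.28, adjusted p = 7.68e-07). In both genes freshly isolated replicate 1 was the highest of its stage and still far below any proliferating library.

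Shmt2, which moves the carbon unit from serine to folate in mitochondria, had 5231, 5165 and 4631 normalized reads in proliferating libraries, against 390, 487 and 504 in freshly isolated ones. The rise was 10.9-fold (log2 change 3.45 ± 0.12, adjusted p = 6.31e-09). Among the 3 serine enzymes Shmt2 varied least between freshly isolated libraries, with replicate 1 the lowest and not the highest. It shares exon bases with Ndufa4l2 on the opposite strand.

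The 2 transporter genes went opposite ways. Slc7a11, the light chain of the exchanger that takes up cystine for glutamate, had 715, 450 and 427 normalized reads in proliferating libraries, against 26, 25 and 17 in freshly isolated ones. It rose 22.2-fold (log2 change 4.47 ± 0.26, adjusted p = 1.48e-07). Slc7a5, the light chain of the exchanger LAT1 for leucine and other large neutral amino acids, had 5196, 5762 and 5172 normalized reads in proliferating libraries, against 8255, 8151 and 6964 in freshly isolated ones. It fell by 0.53 ± 0.11 on the log2 scale (adjusted p = 0.00114), though with equal library totals the change was -0.23 and did not pass (adjusted p = 0.0959).

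Both transporters work only as pairs with the heavy chain encoded by Slc3a2. Slc3a2 had 3002, 2899 and 3105 normalized reads in freshly isolated, 2904, 3202 and 2824 in proliferating and 2568, 2495 and 3129 in myotube libraries. The libraries of the 3 stages overlapped, unlike those of either light chain.

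**Figure D2:**
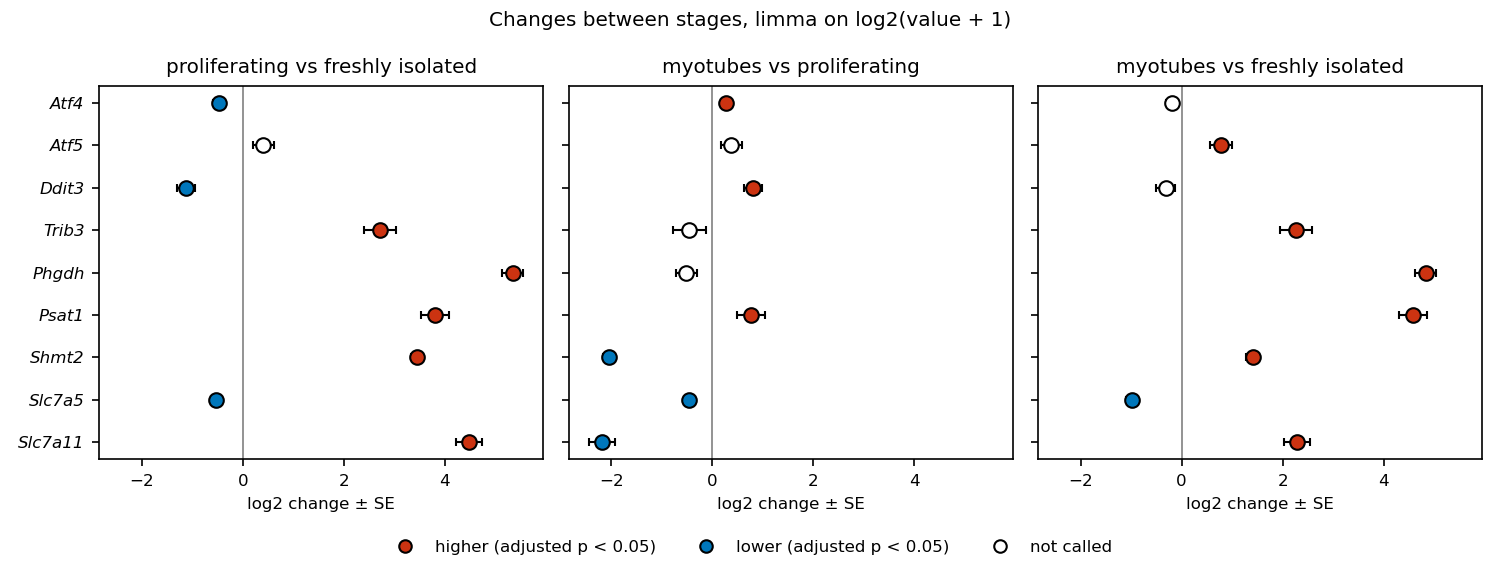
Log2 change of the 9 tested genes in each of the 3 comparisons, as points with standard errors from the limma fit of log2(value + 1); filled points passed the threshold and open points did not. The changes of Phgdh, Psat1 and Slc7a11 against freshly isolated cells are many times larger than those of Atf4 in the same panels.

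Between proliferating cells and myotubes the tested genes went both ways, in shares near those of all genes. Of the 9 tested genes 3 were higher in myotubes (Atf4, Ddit3 and Psat1) and 3 were lower (Shmt2, Slc7a5 and Slc7a11), while 28.6% of all genes tested were called higher and 25.5% lower. The falls of Shmt2 and Slc7a11 were the largest of these changes, and that of Slc7a5 was smaller than the rises of Ddit3 and Psat1. Shmt2 had 1093, 1358 and 1206 normalized reads in myotubes, against 5231, 5165 and 4631 in proliferating libraries, and fell by 2.04 ± 0.12 on the log2 scale (adjusted p = 1.35e-06). Slc7a11 had 117, 120 and 101 normalized reads in myotubes, against 715, 450 and 427 in proliferating libraries, a fall of 2.19 ± 0.26 (adjusted p = 5.5e-05). The library with the highest Slc7a11, proliferating replicate 1, was also the one with the least Myog and Myh3 of its stage, and whether the 2 are linked was not tested.

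Psat1 and Phgdh catalyse neighbouring steps and parted here. Psat1 had 7661, 6646 and 9148 normalized reads in myotubes, against 4502, 4808 and 4384 in proliferating libraries, a log2 change of 0.76 ± 0.28 (adjusted p = 0.0394). Phgdh had 1521, 1394 and 1765 normalized reads in myotubes, against 2287, 2339 and 2030 in proliferating libraries, a log2 change of -0.51 ± 0.21 that did not pass (adjusted p = 0.0587). Neither call was firm. The libraries of the 2 stages lay apart in both genes, but the change of Psat1 passed in 13 of 22 alternative fits and that of Phgdh missed the threshold in 14 of 22. Leaving out any 1 of the 6 libraries of these stages ended the call of Psat1 (adjusted p 0.0502 to 0.132). Without freshly isolated replicate 1, whose spread enters the shared error, the change of Phgdh was the same and passed (adjusted p = 0.00156), as it did without freshly isolated replicate 2 (adjusted p = 0.0353).

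Of the regulators, Ddit3 and Atf4 were called higher in myotubes. Ddit3 had 407, 300 and 399 normalized reads in myotubes, against 253, 171 and 209 in proliferating libraries, and rose by 0.81 ± 0.18 (log2, adjusted p = 0.00345). Atf4 had 10311, 9080 and 11004 normalized reads in myotubes, against 8854, 8322 and 7824 in proliferating libraries, a log2 change of 0.28 ± 0.10 (adjusted p = 0.0435). That call was lost in 11 of 22 alternative fits, among them those without freshly isolated replicate 2, proliferating replicate 2 or 3, or myotube replicate 1 or 3 (adjusted p 0.0508 to 0.158). With equal library totals the change was 0.11 (adjusted p = 0.446). Atf5 lay in the same direction without passing. It had 2235, 1769 and 2432 normalized reads in myotubes, against 1702, 1612 and 1596 in proliferating libraries (log2 change 0.38 ± 0.21, adjusted p = 0.158). The same change passed once freshly isolated replicate 1 was left out (adjusted p = 0.00981). Trib3, with 133, 112 and 151 normalized reads in myotubes, against 223, 171 and 152 in proliferating libraries, did not pass (log2 change -0.45 ± 0.32, adjusted p = 0.261). The leucine transporter gene was lower again. Slc7a5 had 3724, 3611 and 4430 normalized reads in myotubes, against 5196, 5762 and 5172 in proliferating libraries (log2 change -0.46 ± 0.11, adjusted p = 0.00448).

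Set against freshly isolated cells, myotubes kept the rises of culture at different sizes. Of the 9 tested genes 6 were called higher in myotubes and 1, Slc7a5, lower, against 40.2% and 37.3% of all genes tested. This comparison shares its libraries with the other 2 and is no separate evidence. Phgdh averaged 1560 ± 189 normalized reads in myotubes and 55.7 ± 19.5 in freshly isolated cells (SD, n = 3 each), 28.4-fold higher (adjusted p = 1.47e-08). Psat1 averaged 7818 ± 1258 in myotubes and 352 ± 180 in freshly isolated cells, 23.8-fold higher (adjusted p = 1.57e-07). Shmt2 was 2.65-fold higher in myotubes (adjusted p = 2.34e-06), Trib3 4.80-fold (adjusted p = 8.43e-05) and Slc7a11 4.87-fold (adjusted p = 1.62e-05).

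Slc7a5 averaged 3922 ± 444 normalized reads in myotubes and 7790 ± 717 in freshly isolated cells, lower by a log2 change of -0.99 ± 0.11 (adjusted p = 1.14e-05). It was lower at each later stage, the only one of the 9 tested genes called lower in all 3 comparisons. Atf5 was called higher in myotubes (log2 change 0.78 ± 0.21, adjusted p = 0.00634), although 1 myotube library, at 1769, lay below freshly isolated replicate 1 at 1826. Atf4 and Ddit3 did not pass, with log2 changes of -0.20 ± 0.10 (adjusted p = 0.102) and -0.32 ± 0.18 (adjusted p = 0.128).

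Levels of different genes can be set side by side only per length, here as normalized reads per kb of merged exons in GENCODE vM21. In freshly isolated cells the mean levels fell in the order Atf4 at 4934, Slc7a5 at 2101, Atf5 at 646, Ddit3 at 267, Shmt2 at 148, Psat1 at 82.7, Phgdh at 22.4, Trib3 at 13.3, Slc7a11 at 1.63 and Asns at 0.61 per kb. The libraries of Shmt2 and Psat1, of Phgdh and Trib3, and of Slc7a11 and Asns overlapped, so the order within each of these pairs is not settled. Atf4, Slc7a5, Atf5 and Ddit3 thus stood above each of the 4 enzymes in freshly isolated cells.

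In proliferating cells the enzymes had joined them. Atf4 led at 3534 per kb, Shmt2 followed at 1611 and Slc7a5 at 1450, whose libraries overlapped, and Psat1 at 1073, Asns at 974, Phgdh at 892 and Atf5 at 821 overlapped with their neighbours. Ddit3 at 123 and Trib3 at 85.6 per kb, which overlapped, and Slc7a11 at 38.1 came last. In myotubes Atf4 at 4297 per kb was followed by Psat1 at 1838 and Asns at 1459, which overlapped, then by Atf5 at 1076 and Slc7a5 at 1058, which overlapped too, and by Phgdh at 628, Shmt2 at 392, Ddit3 at 215, Trib3 at 62.1 and Slc7a11 at 8.09. Slc7a11 has a long merged exon length of 13.9 kb, and in proliferating cells its level before division by length was above those of Ddit3 and Trib3.

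Replicates of a stage did not scatter alike. In freshly isolated cells replicate 1 was the highest library for 7 of the 10 genes, against 39.7% of all genes tested. That library also had the largest total, and with equal totals it was highest for 4 of the 10. Among all genes with 3 different values, the 2 orders with replicate 1 highest then held 11.8% and 8.46%. It reached 142% of the stage mean for Atf5, 155% for Trib3, 140% for Phgdh and 158% for Psat1. Each of these 4 genes had the order replicate 1, 3, 2 from high to low, both as deposited, where 22.4% of genes with 3 different values had it, and with equal totals, where 11.8% did. That was also the order of Myog and of Mki67, and whether they are linked was not tested. In proliferating cells replicate 3 was the lowest library for 8 of the 10 genes, against 31.8% of all genes tested. With equal totals, the 2 orders with replicate 3 lowest held 3 and 4 of the 10 genes, against 11.2% and 18.8% of genes. In myotubes 7 of the 10 genes (Atf4, Atf5, Trib3, Asns, Phgdh, Psat1 and Slc7a5) were highest in replicate 3 and lowest in replicate 2, against 25.8% of all genes with 3 different values. Library totals had the same order, and with equal totals 6 of the 10 genes kept it, against 16.5% of genes, and Slc7a5 did not. Ddit3, Shmt2 and Slc7a11 had other orders under both scalings. These counts were made after the values were seen.

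**Figure D3:**
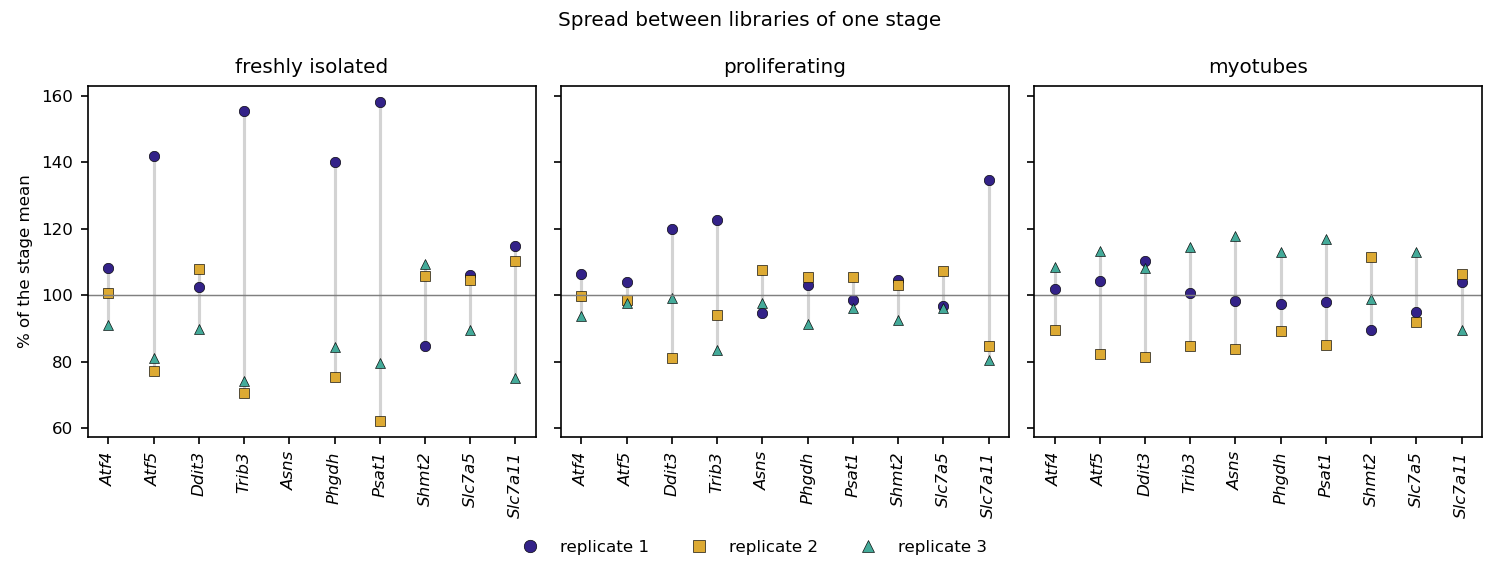
Each library as a percentage of its stage mean for the 10 genes, with 1 panel per stage and symbols for replicates; grey lines span the 3 libraries, and Asns is left out of the freshly isolated panel because its values there were 0, 5 and 0. Freshly isolated replicate 1 reaches 158% for Psat1, and myotube replicate 3 lies above replicates 1 and 2 for 7 of the genes.

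The genes upstream and around ATF4 were listed by role, from general knowledge and with earlier results of these data known. Counts of the lists stand against the shares of all genes tested. These were 37.6% higher and 35.7% lower in proliferating against freshly isolated cells, and 28.6% and 25.5% in myotubes against proliferating cells. In myotubes against freshly isolated cells they were 40.2% and 37.3%. In the list of ATF4 partners, feedback genes and stress targets, 14 of 19 genes were lower and 4 higher in proliferating cells than fresh from muscle, with a median log2 change of -1.62 against 0.07 for all genes. The 4 largest changes were falls. Atf3, a stress-induced factor of the same family, had 32, 32 and 22 normalized reads in proliferating libraries, against 11389, 10775 and 10041 in freshly isolated ones (log2 change -8.52 ± 0.21, adjusted p = 6.58e-10). Ppp1r15a, which encodes the eIF2 phosphatase subunit GADD34 of the feedback loop, had 801, 784 and 771, against 30505, 27804 and 25166 (-5.14 ± 0.10, adjusted p = 1.61e-10). Trib1, a relative of Trib3, changed by -5.97 ± 0.11, and Cebpb, a dimer partner of ATF4, by -4.56 ± 0.17. Dissociation stress genes moved with these. All 10 of them were lower in proliferating cells, and their summed level was 7702 to 8476 normalized reads in proliferating and 400076 to 466108 in freshly isolated libraries. Their part in the falls of Atf4, Ddit3 and the listed genes was not tested.

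The genes of that list that rose were Chac1, Stc2, Eif4ebp1 and Fgf21. Stc2, which encodes a secreted glycoprotein, had 510, 616 and 522 normalized reads in proliferating libraries, against 133, 140 and 103 in freshly isolated ones, and 1809, 1636 and 1861 in myotubes. It rose by 2.13 ± 0.14 in proliferating cells (log2, adjusted p = 4.04e-07) and by a further 1.69 ± 0.14 in myotubes (adjusted p = 6.74e-06). Eif4ebp1, a brake on cap-dependent translation, rose 4.53-fold in proliferating cells (adjusted p = 5.15e-07). Stc2 and Eif4ebp1 were singled out after their values were seen.

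In myotubes 9 of the same 19 genes were higher and 2 lower than in proliferating cells, with a median log2 change of 0.39 against 0.04 for all genes. Fgf21, which encodes a hormone that muscle releases under mitochondrial and amino acid stress, had 2880, 1810 and 3965 normalized reads in myotubes, against 5, 37 and 31 in proliferating libraries. The rise was 142-fold (log2 change 7.15 ± 0.75, adjusted p = 2.7e-05), and without proliferating replicate 1 the log2 change was 6.30. Freshly isolated libraries held 0, 0 and 3. Trib2, another relative of Trib3, rose by 3.55 ± 0.57 (adjusted p = 0.000432), with 124, 133 and 94 normalized reads in myotubes, against 8, 10 and 9. Atf3 was also higher in myotubes, with 197, 142 and 247 normalized reads, far below the freshly isolated level, a comparison singled out after the values were seen.

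The response element stood in the promoters of 5 of the 17 genes of this list that had an entry, namely Atf3, Nupr1, Chac1, Vldlr and Fgf21. Against this, it was found in 3.89% of all genes. Among genes with an entry, the serine, glycine and folate list below had it in 0 of 18 and the glutathione list in 0 of 11. The eIF2 list had it in 1 of 13, the other transporters in 1 of 15 and the endoplasmic reticulum list in 1 of 18. The stretches of the 5 genes named above are shown because genes with the same letters moved in different directions. Each is written on the strand that reads the element, with the element in capitals.
Atf3: gcggacttggTGATGCAAGtgcgagaagg
Nupr1: aagccctgtcTGATGCAATctggcccttt
Chac1: ctggcaggagTGATGCAACggcagggaag
Vldlr: ctaggagcgcTGATGCAACtattgctgct
Fgf21: cctggacggaTGATGCAATgggggggtct
Chac1, a glutathione-degrading enzyme, rose 3.50-fold in proliferating cells (adjusted p = 7.57e-06), and Slc7a11 and Fgf21 were called higher there too, Fgf21 at 5, 37 and 31 normalized reads. Atf3 fell 366-fold, Vldlr, a lipoprotein receptor gene, fell 3.29-fold (adjusted p = 9.46e-06), and Nupr1, a stress-response cofactor gene, fell 1.37-fold (adjusted p = 0.0233), a call that was lost with equal library totals (adjusted p = 0.478), without freshly isolated replicate 2 (adjusted p = 0.0674) and without proliferating replicate 3 (adjusted p = 0.066). In proliferating cells the letters of the element therefore did not go with 1 direction.

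The machinery that phosphorylates and serves eIF2 moved less. Against freshly isolated cells, 8 of 16 genes were higher and 2 lower in proliferating ones, with a median log2 change of 0.59. The largest changes were rises of the exchange factor subunits Eif2b5 (2.21 ± 0.10) and Eif2b1 (1.97 ± 0.11) and of the eIF2 alpha subunit gene Eif2s1 (1.77 ± 0.08), and a fall of the phosphatase subunit Ppp1r15b (-1.96 ± 0.10). Eif2ak4, which encodes GCN2, did not pass there, with 1201, 1087 and 1026 normalized reads in proliferating libraries, against 1035, 1329 and 1222. In myotubes it had 409, 421 and 369 and was lower than in proliferating cells by a log2 change of -1.46 ± 0.12 (adjusted p = 5.5e-06). Gcn1l1, whose product activates GCN2 at the ribosome, was lower by -1.38 ± 0.19 (adjusted p = 0.000153). Of the 16 genes 5 were higher and 4 lower in that comparison.

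The other serine, glycine and folate enzymes rose with Phgdh, Psat1 and Shmt2 in proliferating cells. Against freshly isolated cells, 16 of 22 genes were higher and 3 lower, with a median log2 change of 1.87. Aldh1l2, a mitochondrial enzyme that oxidises the folate-bound carbon unit, had 1950, 1913 and 1912 normalized reads in proliferating libraries, against 13, 18 and 13 in freshly isolated ones (log2 change 6.96 ± 0.16, adjusted p = 4.06e-10). Mthfd2, the mitochondrial dehydrogenase and cyclohydrolase that follows Shmt2, had 4858, 5185 and 4802, against 139, 143 and 130 (5.16 ± 0.09, adjusted p = 1.3e-10). Psph, the phosphatase of the last step of serine synthesis, rose 15.0-fold (adjusted p = 4.79e-07), so all 3 enzymes of that pathway were called higher. Tyms, which makes thymidylate for DNA synthesis, rose by 4.24 ± 0.31 (adjusted p = 7.12e-07).

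In myotubes 13 of these 22 genes were lower and 4 higher than in proliferating cells, with a median log2 change of -0.79. The largest falls were of Mthfd1l, the mitochondrial formate-producing enzyme, by 2.70 ± 0.16 (log2, adjusted p = 1.19e-06), and of Sfxn1, the mitochondrial serine carrier, by 2.48 ± 0.18 (adjusted p = 3.33e-06). Shmt1, the cytosolic counterpart of Shmt2, had 331, 394 and 306 normalized reads in myotubes, against 1385, 1147 and 1109 in proliferating and 1039, 888 and 864 in freshly isolated libraries. Mthfd2 fell less, to 3582, 3189 and 3708 normalized reads in myotubes, a log2 change of -0.50 ± 0.09 (adjusted p = 0.000895), and was still 25.2-fold above freshly isolated cells (adjusted p = 1.44e-10). Aldh1l2 fell by 1.03 ± 0.16 (adjusted p = 0.000313). Shmt1 and the later values of Mthfd2 and Aldh1l2 were singled out after their values were seen.

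**Figure D4:**
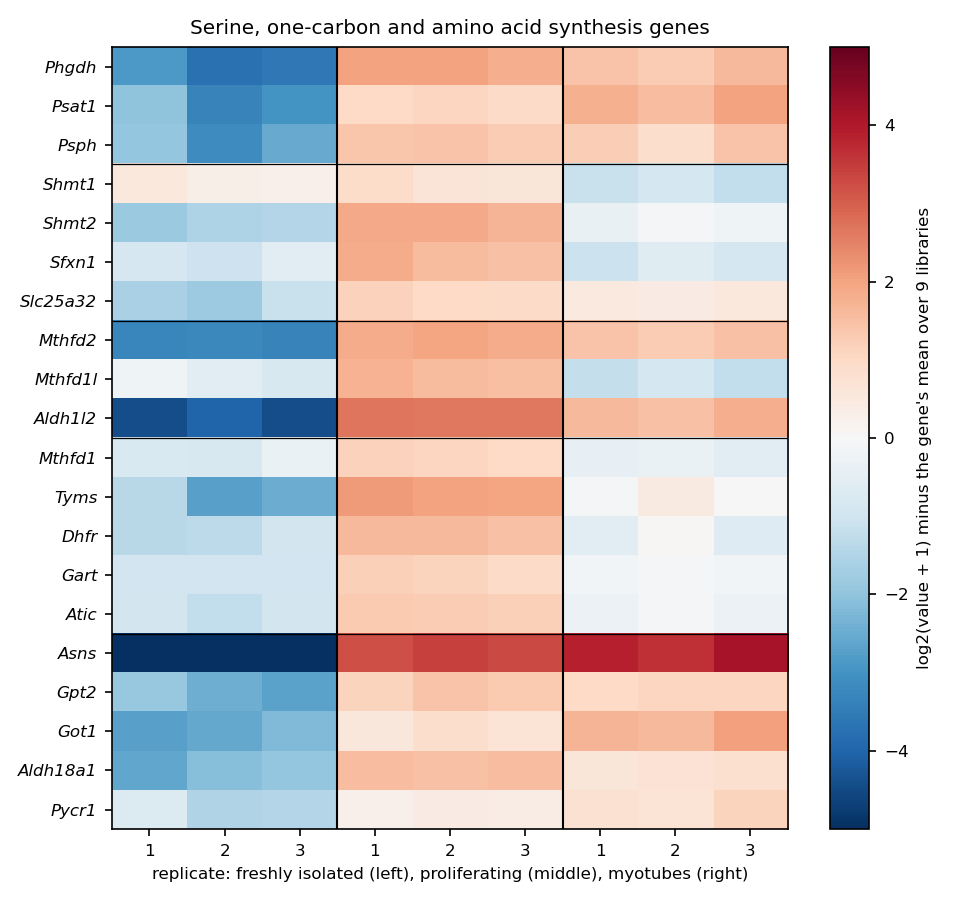
Heat map of genes of serine synthesis, glycine and folate metabolism and other amino acid synthesis in the 9 libraries, as log2(value + 1) minus the mean of the gene over the 9 libraries. The colour scale ends at 5 in either direction, which the freshly isolated libraries of Asns exceed. Phgdh, Psat1, Psph, Mthfd2, Aldh1l2 and Asns are high in both cultured stages, while Shmt1, Sfxn1 and Mthfd1l are high in proliferating cells and low in myotubes.

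The other enzymes of amino acid synthesis and breakdown, among which Asns was not counted, showed no common direction. Proliferating cells had 10 of 21 genes higher and 8 lower than freshly isolated cells, with a median log2 change of 0.01. All genes tested went both ways too, with 37.6% higher and 35.7% lower, so this is no trait of the list. Bcat1, which transaminates branched-chain amino acids, had 2182, 1942 and 1925 normalized reads in proliferating libraries, against 37, 2 and 13 (log2 change 7.43 ± 0.69, adjusted p = 4.6e-06). Leaving out freshly isolated replicate 2 gave 6.45, and leaving out replicate 1 gave 8.28. Aldh18a1, the entry enzyme of proline synthesis, rose by 3.74 ± 0.16. Cbs, the first enzyme that turns homocysteine toward cysteine, had 7, 4 and 9 normalized reads in proliferating libraries, against 736, 761 and 834 (log2 change -6.72 ± 0.33, adjusted p = 5.18e-08). Glul, glutamine synthetase, fell by 4.07 ± 0.10 (adjusted p = 7.74e-10). In myotubes 5 of the 21 genes were higher and 8 lower than in proliferating cells. Prodh, the first enzyme of proline breakdown, fell by 1.98 ± 0.25, and Bcat1 by 2.16 ± 0.69 (adjusted p = 0.0231), a call lost when any of 5 single libraries was left out (adjusted p 0.0551 to 0.0716).

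Got1, the cytosolic aspartate aminotransferase that makes the substrate of Asns, had 994, 1225 and 1062 normalized reads in proliferating libraries, against 102, 112 and 144 in freshly isolated ones, and 2191, 2034 and 2766 in myotubes. It was 1 of 2 genes of the list with the response element, of 13 with a promoter entry, and Pycr1, the last enzyme of proline synthesis, was the other. Got1 rose 9.16-fold in proliferating cells (adjusted p = 6.01e-08) and Pycr1 2.95-fold (adjusted p = 0.000238). Gpt2, the mitochondrial alanine aminotransferase, rose 12.2-fold (adjusted p = 4.94e-08). Gpt2 was singled out after its values were seen.

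Transporters of amino acids other than Slc7a5 and Slc7a11 went both ways too. Proliferating cells had 9 of 21 genes higher and 8 lower than freshly isolated cells, with a median log2 change of 0.11. These counts are near the shares of all genes, 37.6% higher and 35.7% lower, and say little about the list. Slc7a8, the relative of Slc7a5 known as LAT2, had 8, 3 and 0 normalized reads in proliferating libraries, against 1673, 2199 and 2389 in freshly isolated ones, and 117, 110 and 131 in myotubes. It was called lower in proliferating cells (adjusted p = 4.3e-07) and higher in myotubes than in proliferating cells (adjusted p = 6.3e-05). The glutamine transporter gene Slc38a3 fell by 5.87 ± 0.41 and the leucine transporter gene Slc43a2 by 3.01 ± 0.11. Slc7a3, for cationic amino acids, had 171, 146 and 169 normalized reads in proliferating libraries, against 0, 16 and 13 (log2 change 4.71 ± 0.88, adjusted p = 0.000698), and leaving out freshly isolated replicate 1 gave 3.40. Slc38a2, a sodium-coupled carrier known to be induced by amino acid shortage, was lower in proliferating cells by a log2 change of -1.47 ± 0.13 (adjusted p = 2.5e-06) and was singled out after its values were seen. In myotubes 4 of the 21 were higher, Slc38a4 by 2.49 ± 0.35 (adjusted p = 0.000182), and 9 were lower than in proliferating cells.

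Cytosolic tRNA synthetases, which charge tRNAs and of which several are ATF4 targets, rose in culture more uniformly than the other 7 lists. Proliferating cells had 18 of 20 genes higher and 1 lower than freshly isolated cells, with a median log2 change of 1.70. Gars, for glycine, had 8333, 9012 and 8208 normalized reads in proliferating libraries, against 1109, 907 and 847, an 8.97-fold rise (adjusted p = 5.73e-09). Mars, Lars and Vars rose 4.83-fold, 4.79-fold and 4.32-fold. In myotubes 9 were higher and 6 lower than in proliferating cells, and 18 were higher and 1 lower than in freshly isolated cells. Vars, for valine, was the largest fall in myotubes. It had 1032, 1269 and 1033 normalized reads in myotubes, against 7021, 6560 and 6472 in proliferating libraries (log2 change -2.59 ± 0.19, adjusted p = 3.3e-06). Farsb rose by 0.99 ± 0.20 in myotubes (adjusted p = 0.00162). Gars and Tars were among the genes of this list with the element.
Gars: gcccggtgcaTGATGAAATagcgcagcca
Tars: aaccagcTGATGCAACgggactcctg
These 2 stretches are shown as examples. Both genes were called higher in proliferating cells, with log2 changes of 3.16 ± 0.11 for Gars and 1.45 ± 0.10 for Tars.

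Chaperones and sensors of the endoplasmic reticulum, which share the kinase PERK with the ATF4 pathway, went both ways. Proliferating cells had 12 of 21 genes higher and 9 lower than freshly isolated cells, with a median log2 change of 0.38. Hspa5, the main chaperone BiP, had 13710, 15088 and 15464 normalized reads in proliferating libraries, against 78399, 65504 and 62643 (log2 change -2.22 ± 0.11, adjusted p = 5.7e-08). Dnajb9, its cochaperone, fell by 3.20 ± 0.24. Pdia4, a disulfide isomerase, rose by 1.93 ± 0.14, and Sdf2l1 by 1.99 ± 0.69 (adjusted p = 0.0241), or 3.01 without freshly isolated replicate 1. The call of Sdf2l1 was lost without either of freshly isolated replicates 2 and 3 (adjusted p = 0.0944 and 0.0935) or of proliferating replicates 2 and 3 (adjusted p = 0.0559 and 0.0817). In myotubes 10 of the 21 were higher and 3 lower than in proliferating cells. The sensor kinase gene Ern1 fell by 1.61 ± 0.10 and Herpud1, an endoplasmic reticulum degradation factor, rose by 1.31 ± 0.14.

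A further list was of glutathione synthesis and use. Glutathione holds cysteine, which Slc7a11 brings in as cystine. Of the 13 listed genes 11 were tested, and proliferating cells had 5 of them higher and 1 lower than freshly isolated cells, with a median log2 change of 0.15. Gsr, glutathione reductase, rose by 3.54 ± 0.09 (adjusted p = 8.64e-10), Gclm, the modifier subunit of the first step, by 2.14 ± 0.21, and Chac2 by 2.25 ± 0.30. Glrx had 71, 37 and 41 normalized reads in proliferating libraries, against 0, 5 and 10 (log2 change 3.59 ± 0.74, or 2.58 without freshly isolated replicate 1). In myotubes Gclm had 301, 347 and 318 normalized reads, against 2980, 2040 and 2176 in proliferating libraries. Like Slc7a11, it was highest in proliferating replicate 1, as were 35.0% of all genes tested. It fell by 2.88 ± 0.21 (log2, adjusted p = 3.33e-06), whereas Gpx4, which uses glutathione against lipid peroxides, rose by 2.28 ± 0.19 (adjusted p = 6.05e-06). Of the 11 genes 5 were higher and 5 lower.

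**Figure D5:**
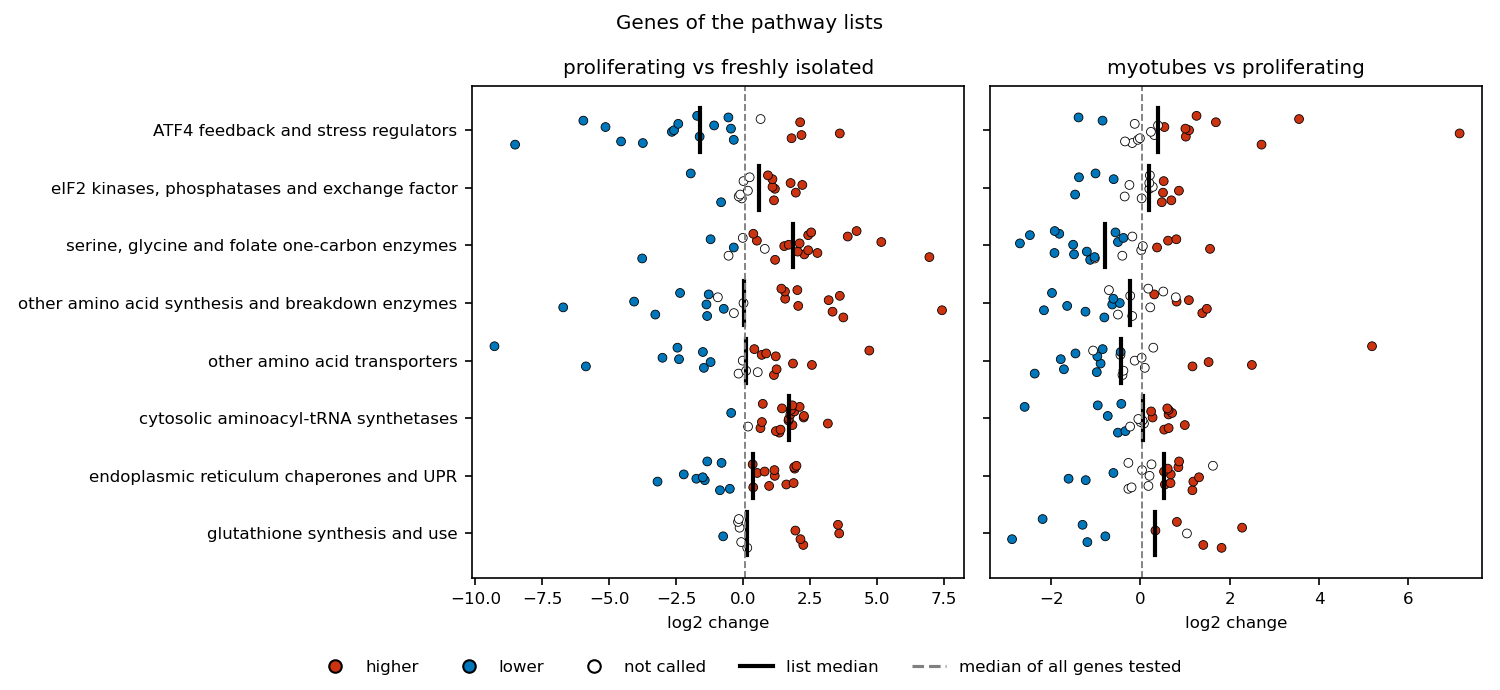
Log2 change of each tested gene of the 8 pathway lists, in 2 comparisons; red points were called higher, blue points lower and open points were not called. Thick bars are list medians and dashed lines the median of all genes tested. The tRNA synthetases and the serine, glycine and folate enzymes lie mostly right of the dashed line in proliferating against freshly isolated cells, and the ATF4 feedback genes mostly left of it.

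Markers of other cell types also differed between stages. Fibro-adipogenic markers summed to 2886 to 3842 normalized reads in freshly isolated, 41 to 53 in proliferating and 656 to 860 in myotube libraries. The freshly isolated sum was mostly Dpt, which was at 0 in proliferating libraries together with Cxcl14 and Lum. The myotube sum was mostly Col1a1, at 631 to 834. Pdgfra went the other way, with 4 to 9 in freshly isolated, 13 to 22 in proliferating and 12 to 17 in myotube libraries. Leukocyte markers summed to 701 to 805, 58 to 80 and 244 to 261 in the same order of stages, with Adgre1 at 0 in freshly isolated and proliferating libraries. The freshly isolated sum was mostly Cd68 (549 to 629) and Cd79a (150 to 165), with Ptprc at 0, 0 and 14. The myotube sum was mostly Itgam (213 to 229). These sums therefore rest on few genes of the list. Endothelial markers summed to 105 to 227, 54 to 98 and 20 to 28, Schwann cell markers to 213 to 303, 93 to 98 and 59 to 99, and erythroid markers to 15 to 23, 50 to 96 and 3 to 10. The erythroid sums were mostly Alas2. Pericyte and smooth muscle markers summed to 2340 to 3789, 8644 to 20025 and 60983 to 62179, mostly Acta2, which muscle cells in culture also express. In bulk samples fewer cells of a type and less RNA per cell cannot be told apart, and the part of other cell types in the falls of Atf4, Ddit3 and Slc7a5 was not tested.

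The genes whose levels ran most like those of 2 of the 10 genes were looked up among genes with a mean of at least 100 in their highest stage, as a description. For Asns they were Zdhhc6, Padi3, Zfp770, Stac2 and Ccdc58, with Pearson r of 0.997 to 0.999 over the 9 libraries. Such values rest on the gap between freshly isolated and cultured libraries and on the 5 normalized reads of freshly isolated replicate 2, and only 1 of the 5 genes stayed on the list with a pseudocount of 10. For Atf4 they were Rps15, Sap18, Rpl18, Spop and Rps3, with r of 0.968 to 0.990. Of these, Rps15, Rpl18 and Rps3 encode ribosomal proteins.

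In GRCm38 with GENCODE vM21, Atf4 lies at chr15:80255184-80257541 (plus strand), Atf5 at chr7:44812256-44816658 (minus), Ddit3 at chr10:127290774-127296288 (plus) and Trib3 at chr2:152337422-152344032 (minus). Asns lies at chr6:7675169-7693254 (minus), Phgdh at chr3:98313170-98339990 (minus), Psat1 at chr19:15904678-15947337 (minus) and Shmt2 at chr10:127517123-127522444 (minus). Slc7a5 lies at chr8:121881150-121907694 (minus) and Slc7a11 at chr3:49892526-50443614 (minus). The RefSeq starts of Psat1 lie over 22 kb inside its GENCODE model, so its promoter entries and its counted gene need not share a start.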

How the data were processed

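Per the labels' protocols, libraries were made from 100 ng of total RNA with RiboGone, which removes ribosomal RNA, and the SMARTer Stranded kit. The submitters' processing notes name STAR 2.4.0a for alignment, featureCounts 1.4.5-p1 (Subread) for counting, and the build mm10, or GRCm38. The deposited values are a score: read counts per gene that the authors scaled and then rounded. The sources used here give neither the scaling tool nor the strand setting. Columns prefixed Q were assigned to freshly isolated cells by elimination. Count tests had been foreseen for raw counts and were not used.

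Genes reaching 10 in 3 or more libraries (17291) were fitted on log2(value + 1) with limma, using a mean-variance trend, for the 3 stages and all 9 libraries together. Calls needed an adjusted p (Benjamini-Hochberg) below 0.05. The fit was tested on simulated data. No block was used, since replicate numbers are not said to mark shared animals. Deviations from stage means had correlations of -0.034 to 0.027 between same-numbered replicates and -0.058 to 0.059 between differently numbered ones. These values cannot settle whether animals were shared.

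The 10 genes and the lists were chosen with earlier results of these data known. Of 211 listed symbols 210 were in the table (Gcn1 was not matched). From each pathway list, the text names up to 4 genes with the largest called change for proliferating against freshly isolated cells. It also names up to 2 with the largest called change for myotubes against proliferating cells. Some, not all, of the genes whose promoter holds the element are named too. Slc3a2 is named as the partner of both transporters, and the text marks the rest as singled out. Promoters are from RefSeq, positions and exon lengths from GENCODE vM21. Some promoter stretches with the element are not reported here. Alternatives changed the pseudocount, filter, scaling, trend, weights, libraries and block. Software: Python 3.11.15, matplotlib 3.10.9, numpy 2.4.6 and pandas 2.3.3, and R 4.3.3 with limma 3.58.1.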

Additional observations from a re-analysis of the deposited data

How the results depend on the processing

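None of the log2 changes of the 9 tested genes reversed in the 22 alternative fits of each comparison, while 23 calls were lost and 20 gained. No log2 change of a listed gene printed above reversed. Of the genes lower in proliferating cells than fresh from muscle, 3 as reported, 1 passed with equal library totals, which shifted the median log2 change of all genes by 0.28. Of genes higher in myotubes than in proliferating cells, 3 as reported, 1 passed with no filter, with quantile normalization or without the trend, and 1 to 4 when a single library was left out (1 without proliferating replicate 2 or 3, or without myotube replicate 1 or 3). Of genes lower in myotubes than in proliferating cells, 3 as reported, 5 passed with only the 2 stages compared. Of genes lower in myotubes than in freshly isolated cells, 1 as reported, 3 passed with upper quartile scaling and 2 with quantile normalization, which shifted the median of all genes by -0.27 and -0.09. With the replicate number as a block, 8, 5 and 7 of the 9 genes passed in the 3 comparisons, against 8, 6 and 7, and the call of Atf4 in myotubes against proliferating cells was lost (adjusted p = 0.0517). Replicate numbers are not said to mark shared animals. No same-numbered pair had a correlation over 0.1, nor had any differently numbered pair, so this check cannot settle whether animals were shared. Freshly isolated replicate 1 had the fewest reads, so its low values are the coarsest. With 3 libraries per stage from different animals, small changes such as those of Atf4 are the least certain.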
